A study of Homo sapiens with 12 samples.

Results

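VGLL2-NCOA2 was compared directly with YAP5SA in HEK293T cells, using the 3 VGLL2-NCOA2 samples and the 3 YAP5SA samples, 6 of the 12 samples of the series. VGLL2-NCOA2 is a fusion found in a form of rhabdomyosarcoma. It carries the part of VGLL2 that binds TEAD transcription factors, joined to the C-terminal activation domains of NCOA2. YAP5SA is full-length YAP in which serines that the LATS kinases phosphorylate have been replaced by alanine. Both were delivered by transient transfection into HEK293T, an easily transfected line from human embryonic kidney with SV40 large T antigen, so the cells of a dish took up differing amounts of plasmid and kept their own YAP, TEAD and NCOA2 genes. The TEAD1-NCOA2 samples and the pcDNA3.1 empty vector (control) samples, 3 each, are given here as levels only. The question was which transcripts separate the fusion from active YAP, since both act through TEAD.

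TEAD factors bind DNA but activate little alone. In the Hippo pathway the kinases LATS1 and LATS2 keep YAP and its relative TAZ out of the nucleus, and unphosphorylated YAP enters it and joins TEAD at genes such as CTGF and CYR61. VGLL proteins bind TEAD through a short motif in place of YAP. NCOA2 is a p160 coactivator of nuclear receptors whose activation domains bring in the acetyltransferases CREBBP and EP300.

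Expression is given in FPKM, which divides fragments by gene length and by the library total. Differences are VGLL2-NCOA2 minus YAP5SA in log2(FPKM + 1), ± the standard error of limma. Adjusted p-values are by Benjamini and Hochberg's method, over all genes tested. Calls needed an adjusted p under 0.05 and a difference of more than 1 in either direction. Because 1 is added to each value, differences of weakly expressed genes come out too small.

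The YAP5SA table differed in kind from the VGLL2-NCOA2 table. Low values of the VGLL2-NCOA2 samples were all whole numbers of fragments, within 0.05 fragments, and added up to between 14414778 and 15222480 fragments per sample. In the YAP5SA samples 22.1% to 23.3% of low values were whole, so their depth could not be read from the values. YAP5SA replicates 1 and 2 held the same non-zero value, within a relative tolerance of 1e-06, for 1538 of 29633 genes above 0 in both, though for only 12 of the genes tested. The number was 0 between either of them and replicate 3. Fewer genes were above 0 in VGLL2-NCOA2 samples, 25969 to 26247, against 30893 to 31160 in YAP5SA samples. Effects of the plasmid and of the way each table was made cannot be told apart, and the levels set side by side carry that limit.

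YAP5SA replicate 3 stood apart. Across the genes tested its log2 values correlated with those of the other YAP5SA samples at r of 0.91, against 0.98 between these, and its FPKM values summed to 190861, against 237996 or more in the other 5 samples. Where leaving it out lost the call of a named gene or turned the sign of its difference, the value without it is given beside the result. The cell line was checked against its markers. Of 5 marker genes of the line, 3 reached 1 FPKM in VGLL2-NCOA2 samples and 4 in YAP5SA samples. Together the 5 markers summed to 65.7 to 67.2 FPKM in VGLL2-NCOA2 samples and 13.6 to 19.5 FPKM in YAP5SA samples. The 4 leukocyte markers summed to at most 2.72 FPKM and the 4 endothelial markers to at most 0.327 FPKM in any of the 6 samples. The 4 fibroblast markers summed to 5.03 to 6.45 FPKM in VGLL2-NCOA2 samples and 13.6 to 15.7 FPKM in YAP5SA samples, a difference carried by COL3A1, and COL1A2 was at 0 in all 6. The part of marker genes in the results was not tested.

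The transfected genes were examined first, since they check the labels. VGLL2 (chromosome 6, 117265558 to 117273565) had 247, 253 and 269 FPKM in VGLL2-NCOA2 samples. In YAP5SA samples it was listed at 0, 0 and 54.4 FPKM. NCOA2 (chromosome 8, 70109762 to 70403805) had 607, 621 and 613 FPKM in VGLL2-NCOA2 samples, against 0, 0 and 140.6 FPKM in YAP5SA samples. Both genes were thus high in each VGLL2-NCOA2 sample, and YAP5SA replicate 3, alone in its group, held transcripts of both. Its levels were 21.2% of the VGLL2-NCOA2 mean for VGLL2 and 22.9% for NCOA2. The ratio of NCOA2 to VGLL2 was 2.28 to 2.45 in VGLL2-NCOA2 samples and 2.58 in YAP5SA replicate 3. Control cells had 1.13 to 1.70 FPKM of VGLL2 and 1.53 to 2.59 FPKM of NCOA2, so the zeros in YAP5SA replicates 1 and 2 lay under the control level. Reads of the fusion and of the cell's own genes were not separated.

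YAP1 (chromosome 11, 102110461 to 102233423) had 7.44, 7.17 and 7.47 FPKM in VGLL2-NCOA2 samples and 3369, 3912 and 5779 FPKM in YAP5SA samples. The YAP5SA plasmid was thus expressed in all 3 of its samples, highest in replicate 3, while YAP1 in VGLL2-NCOA2 cells was near the control mean of 5.33 FPKM. TEAD1, the DNA-binding partner, had 11.2, 12 and 12 FPKM in VGLL2-NCOA2 samples, against 12.2, 12.2 and 15.7 FPKM in YAP5SA samples and a mean of 3.23 FPKM in control samples. It did not pass the test (difference -0.17 ± 0.11, adjusted p = 0.31 in limma). For each of these 4 genes the 2-sided exact permutation p was 0.1, the smallest possible with 3 samples against 3. In limma VGLL2 was called higher (6.08 ± 1.55, adjusted p = 0.031) and so was NCOA2 (6.88 ± 1.92, adjusted p = 0.040), while YAP1 was called lower (-8.99 ± 0.22, adjusted p = 5.02e-05). Without YAP5SA replicate 3 the differences were 8.01 for VGLL2 and 9.26 for NCOA2, both called. Leaving out any other single sample lost both calls, with adjusted p of 0.084 to 0.090 for VGLL2 and 0.105 to 0.107 for NCOA2. With zeros in the group these fitted differences depend on the value added before the logarithm and are no bounds.

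**Figure D1:**
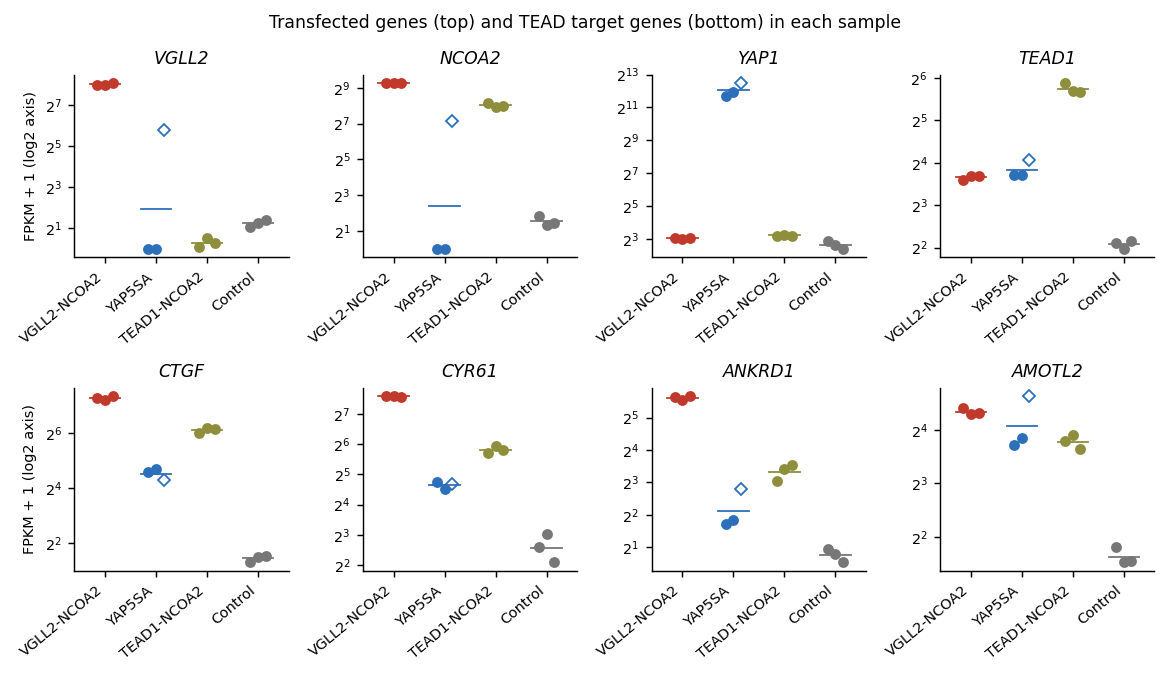
Expression of the 4 transfected genes and of 4 TEAD target genes, as FPKM + 1 on a log2 axis, in each of 12 samples, with the mean of the log values as a bar and YAP5SA replicate 3 as an open diamond. VGLL2 and NCOA2 are high in YAP5SA replicate 3 alone of its group, and CTGF, CYR61 and ANKRD1 are higher in every VGLL2-NCOA2 sample than in every YAP5SA sample.

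Canonical TEAD target genes separated the plasmids clearly. CTGF, CYR61 and ANKRD1 were all higher with VGLL2-NCOA2 than with YAP5SA, by differences of 2.75 to 3.48, while AMOTL2 did not pass the test. CTGF and CYR61 encode secreted matricellular proteins and ANKRD1 a muscle ankyrin repeat protein, and all 3 are standard readouts of YAP activity. AMOTL2 encodes an angiomotin that holds YAP back.

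The upstream sequences of CTGF, ANKRD1 and AMOTL2 are shown with the TEAD core element, through which TEAD binds DNA. CYR61 was not searched. The 250 bases before the RefSeq start (GRCh38.p14) are printed in gene orientation, with GGAATG or its reverse complement CATTCC in capitals; the 2 words do not overlap each other in these stretches.
CTGF, chr6:131951373-131951622, minus strand: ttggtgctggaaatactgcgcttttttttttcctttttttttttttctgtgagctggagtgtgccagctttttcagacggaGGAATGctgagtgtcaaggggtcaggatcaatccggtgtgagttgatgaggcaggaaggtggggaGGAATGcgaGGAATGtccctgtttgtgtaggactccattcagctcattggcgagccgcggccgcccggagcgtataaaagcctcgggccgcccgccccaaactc
ANKRD1, chr10:90921088-90921337, minus strand: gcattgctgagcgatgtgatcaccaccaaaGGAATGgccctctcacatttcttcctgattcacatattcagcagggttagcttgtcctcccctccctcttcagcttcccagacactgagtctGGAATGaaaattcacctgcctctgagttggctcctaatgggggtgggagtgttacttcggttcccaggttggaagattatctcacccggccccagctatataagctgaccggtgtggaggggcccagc
AMOTL2, chr3:134374448-134374697, minus strand: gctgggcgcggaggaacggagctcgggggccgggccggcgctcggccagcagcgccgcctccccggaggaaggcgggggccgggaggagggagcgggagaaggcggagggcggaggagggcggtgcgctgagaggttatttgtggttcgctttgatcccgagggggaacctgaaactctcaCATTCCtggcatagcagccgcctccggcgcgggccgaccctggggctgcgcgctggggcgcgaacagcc
CTGF held 3 copies, starting 169, 104 and 95 bases before the start, and ANKRD1 held 2, at 220 and 128 bases. AMOTL2 has 2 RefSeq starts, of which the one printed held 1 copy, at 69 bases, and the other held 0. Of all 35116 RefSeq promoters, 11.9% held the word on either strand within 250 bases before the start. The RefSeq starts of OXCT1, CYBA and DDR2, which are among the largest differences described below, held 0 copies. A match is a description of these letters and no evidence of binding.

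CTGF (chromosome 6, 131948176 to 131951373) had 152, 145 and 159 FPKM in VGLL2-NCOA2 samples, against 22.7, 24.5 and 18.6 FPKM in YAP5SA samples. The groups did not overlap, and the difference was 2.75 ± 0.12 (adjusted p = 0.00029). TEAD1-NCOA2 samples averaged 68.2 FPKM and control samples 1.73 FPKM. CTGF was thus far above control under each plasmid and highest under VGLL2-NCOA2.

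CYR61 (chromosome 1, 85580761 to 85583962) had 192, 192 and 190 FPKM in VGLL2-NCOA2 samples, against 26.0, 21.9 and 24.5 FPKM in YAP5SA samples, a difference of 2.94 ± 0.10 (adjusted p = 0.00012). ANKRD1 (chromosome 10, 90912096 to 90921276) had 48.1, 45.4 and 49.5 FPKM in VGLL2-NCOA2 samples, against 2.28, 2.61 and 6 FPKM in YAP5SA samples, and showed the largest difference of the 4 targets, 3.48 ± 0.28 (adjusted p = 0.0015). Control means were 5.17 FPKM for CYR61 and 0.706 FPKM for ANKRD1. YAP5SA replicate 3, which held VGLL2 and NCOA2 transcripts, was the highest of its group for ANKRD1, the lowest for CTGF and in the middle for CYR61. Without it the differences were 2.64 for CTGF, 2.95 for CYR61 and 3.82 for ANKRD1, all called. These 3 calls also held when any other single sample was left out.

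AMOTL2 (chromosome 3, 134355874 to 134375479) had 20.3, 18.6 and 18.8 FPKM in VGLL2-NCOA2 samples and 12.2, 13.3 and 23.8 FPKM in YAP5SA samples, so that replicate 3 lay above and the other YAP5SA samples below the VGLL2-NCOA2 samples. The difference was 0.27 ± 0.24 (adjusted p = 0.43), and 0.56 without replicate 3, still under the threshold of 1. Both plasmids stood above the control mean of 2.11 FPKM.

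Across the transcriptome, 15095 genes reached 1 FPKM in 3 or more of the 6 samples and were tested. Of these, 294 were called higher in VGLL2-NCOA2 samples (1.95%) and 324 lower (2.15%). The median difference of all genes was 0.01 and the middle range ran from -0.26 to 0.30. Without YAP5SA replicate 3, 269 genes were called higher (1.78%) and 346 lower (2.29%), of which 234 and 277 were called in the same direction with all 6 samples. 0 genes were called in opposite directions with and without it. In all 294 genes called higher every VGLL2-NCOA2 sample lay above every YAP5SA sample, as it did in 26.3% of all genes tested, and in all 324 called lower it lay below, as in 24.7% of genes tested. The split between directions changed on the TPM scale. Median-of-ratios scaling gave 277 higher and 337 lower, and quantile normalization 283 and 309. Expressed as TPM, which sets each sample to the same sum, the median difference of all genes was -0.17 instead of 0.01, and 308 genes were called higher against 929 lower.

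Among the 11789 protein-coding genes tested, 219 were higher (1.86%) and 177 lower (1.5%). The remaining calls, 75 higher and 147 lower, fell on non-coding genes and pseudogenes, whose short or shared sequences make FPKM less certain.

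The levels of control cells were set beside the calls. The control mean lay nearer to VGLL2-NCOA2 than to YAP5SA, on the log2 scale, for 286 of the 324 genes called lower and for 208 of the 294 called higher. For 144 of the genes called higher the control lay above both plasmids and for 32 below both, and for 14 of the genes called lower it lay above both and for 185 below both. TEAD1-NCOA2 lay nearer to VGLL2-NCOA2 for 176 of the genes called higher and nearer to YAP5SA for 118. For the genes called lower these numbers were 296 and 28. These are levels across separately made tables and were not tested.

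**Figure D2:**
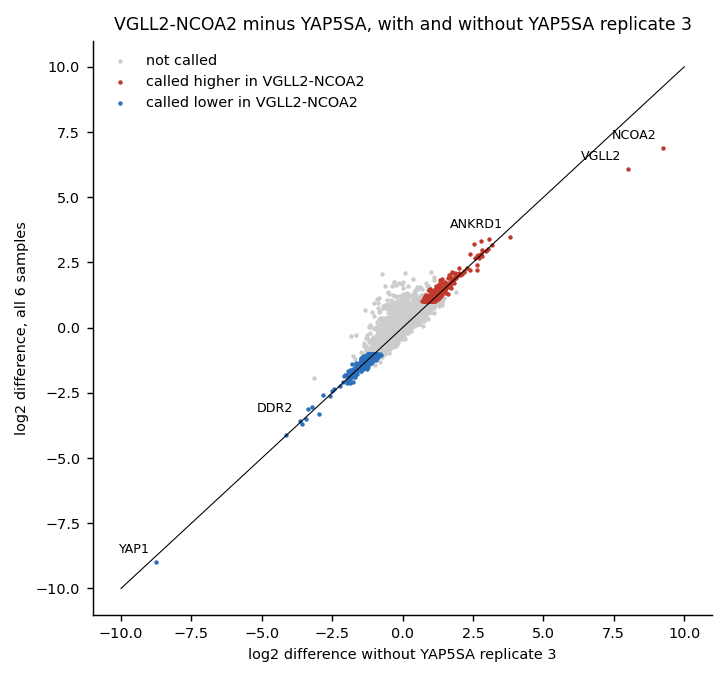
Difference between VGLL2-NCOA2 and YAP5SA for each of 15095 genes, on the log2(FPKM + 1) scale, with all 6 samples (vertical axis) and without YAP5SA replicate 3 (horizontal axis), colored by the call with all 6. VGLL2 and NCOA2 lie below the line of equality, since replicate 3 held both transcripts, and no gene is called in opposite directions.

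The presence of VGLL2 and NCOA2 transcripts in YAP5SA replicate 3, not shown to be those of the fusion, was set beside its other genes. For the 267 genes called higher without it, transfected genes left aside, replicate 3 lay at a median of -0.08% of the way in FPKM from the mean of YAP5SA replicates 1 and 2 to the VGLL2-NCOA2 mean, with quartiles of -8.7% and 8.2%. For the 345 genes called lower it lay at a median of 17.4%, with quartiles of -11.3% and 47.5%. On this FPKM scale replicate 3 lay near the other YAP5SA samples at most genes of the first set, and between the groups at many of the second. In the first set YAP5SA is the lower group, so even large fold shifts of replicate 3 give small percentages. IFI6 had 0.627 FPKM in replicate 3 against 5.66 and 4.98 FPKM in replicates 1 and 2, and ANKRD1 had 6 against 2.28 and 2.61 FPKM. The percentages of the 2 sets therefore cannot be compared with each other.

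Beside VGLL2, NCOA2, ANKRD1 and CYR61, the 12 largest increases held metabolic, transport and protease genes. OXCT1, the mitochondrial enzyme that lets cells use ketone bodies, had 8.25, 8.73 and 9.05 FPKM in VGLL2-NCOA2 samples and 0.045, 0.105 and 0.051 FPKM in YAP5SA samples, a difference of 3.18 ± 0.08 (adjusted p = 5.02e-05). The control mean was 3.71 FPKM, so OXCT1 was above it with VGLL2-NCOA2 and almost absent with YAP5SA.

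For 6 of the 12 largest increases the control was higher than both plasmids, and for 8 it lay nearer to VGLL2-NCOA2. TEAD1-NCOA2 lay nearer to VGLL2-NCOA2 for 6 of the 12 and nearer to YAP5SA for the other 6. CYBA, a subunit of the NADPH oxidase, had 31.7, 30.7 and 27.8 FPKM in VGLL2-NCOA2 samples, against 3.07, 2.40 and 0.914 FPKM in YAP5SA samples and a control mean of 40.7 FPKM (difference 3.38 ± 0.27, adjusted p = 0.00145). CA2, a carbonic anhydrase, had 84.5, 83.8 and 85.2 FPKM in VGLL2-NCOA2 samples, against 11.9, 10.7 and 2.96 FPKM in YAP5SA samples and a control mean of 199.6 FPKM (3.34 ± 0.44, adjusted p = 0.0046). In both genes YAP5SA replicate 3 was the lowest sample, and the groups did not overlap. SPINT2, an inhibitor of serine proteases at the cell surface, had 12.1 to 12.6 FPKM in VGLL2-NCOA2 samples and 0.319 to 1 FPKM in YAP5SA samples (2.99 ± 0.16, adjusted p = 0.00047).

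SLC7A3, a transporter of cationic amino acids, had 7.80, 7.96 and 8.20 FPKM in VGLL2-NCOA2 samples and 0.088, 0.090 and 0.175 FPKM in YAP5SA samples (3.01 ± 0.08, adjusted p = 5.21e-05). CTSF, a lysosomal cathepsin, had 6.63 to 8.44 FPKM in VGLL2-NCOA2 samples and 0.208 to 0.320 FPKM in YAP5SA samples (2.81 ± 0.11, adjusted p = 0.00022). Both were near absent in YAP5SA cells and had control means of 11.4 FPKM each. The remaining members of the 12, IFI6 and CHAC1, belong to gene groups taken up below. All 12 stayed called without YAP5SA replicate 3.

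The largest decreases had higher levels with YAP5SA than in control cells, and for all 12 of them the control lay nearer to VGLL2-NCOA2. TEAD1-NCOA2 lay nearer to VGLL2-NCOA2 for 10 of them and nearer to YAP5SA for 2. DDR2, a receptor tyrosine kinase for fibrillar collagen (chromosome 1, 162631373 to 162787400), had 1.54, 1.35 and 1.33 FPKM in VGLL2-NCOA2 samples, against 30.2, 27.8 and 25.7 FPKM in YAP5SA samples. The difference was -3.58 ± 0.09 (adjusted p = 5.02e-05), with means of 10.3 FPKM in TEAD1-NCOA2 samples and 0.499 FPKM in control samples. DDR2 was thus highest with YAP5SA, lower with TEAD1-NCOA2 and close to control with VGLL2-NCOA2.

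The collagen genes COL3A1 and COL5A2 were also lower. COL3A1 had 1.38, 1 and 1.02 FPKM in VGLL2-NCOA2 samples and 11.9, 11.3 and 12.8 FPKM in YAP5SA samples (-2.61 ± 0.10, adjusted p = 0.00018). COL5A2 had 0.919, 0.859 and 1.12 FPKM in VGLL2-NCOA2 samples and 6.95, 5.30 and 8.06 FPKM in YAP5SA samples (-1.97 ± 0.15, adjusted p = 0.0012). Both encode chains of fibrillar collagen and were under 1 FPKM on average in control cells. SNAI2, a zinc finger repressor of epithelial genes, had 1.75, 1.10 and 1 FPKM in VGLL2-NCOA2 samples, against 9.59, 13.1 and 8.96 FPKM in YAP5SA samples and a control mean of 3.83 FPKM (-2.34 ± 0.18, adjusted p = 0.0013). With VGLL2-NCOA2, SNAI2 was below control, while TEAD1-NCOA2 samples averaged 10.3 FPKM, near the YAP5SA level.

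AMH, the anti-Mullerian hormone, had 15.9, 13.7 and 13.1 FPKM in VGLL2-NCOA2 samples and 121, 96.3 and 63.8 FPKM in YAP5SA samples (-2.59 ± 0.24, adjusted p = 0.0017). YAP5SA replicate 3 was the lowest of its group. TENM1, a teneurin of the neuronal surface, had 1.91 to 2.22 FPKM in VGLL2-NCOA2 samples and 13.2 to 19.4 FPKM in YAP5SA samples (-2.42 ± 0.15, adjusted p = 0.00072). EPDR1, a lysosomal protein related to ependymin, had 1.30 to 1.88 FPKM in VGLL2-NCOA2 samples and 9.32 to 10.3 FPKM in YAP5SA samples. The dopamine receptor DRD4 had 4.81 to 6.24 FPKM in VGLL2-NCOA2 samples and 15.7 to 32.8 FPKM in YAP5SA samples. The groups did not overlap in any of these genes.

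The other 3 decreases, beside YAP1, came from a single stretch of chromosome 1. SF3B4, a subunit of the U2 spliceosomal particle, had 30.4, 28.8 and 27.8 FPKM in VGLL2-NCOA2 samples and 109, 126 and 160 FPKM in YAP5SA samples (-2.13 ± 0.15, adjusted p = 0.0011). Its neighbours MTMR11, a myotubularin-related protein, and OTUD7B, a deubiquitinase, differed by -1.91 ± 0.14 and -1.77 ± 0.13. Their position is described at the end. All 12 decreases stayed called without YAP5SA replicate 3.

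**Figure D3:**
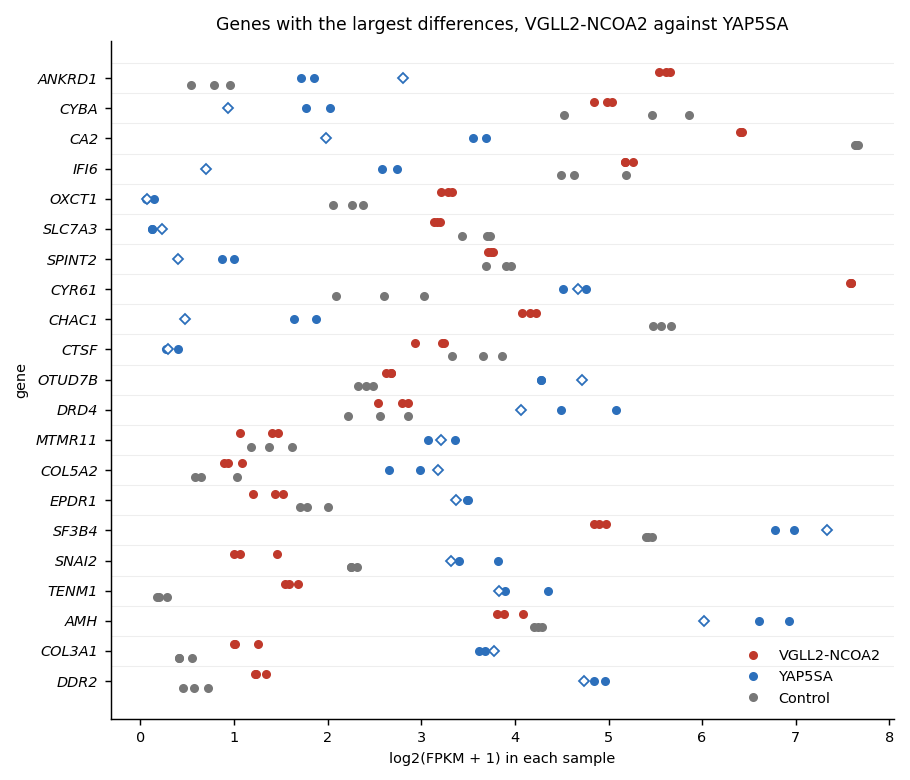
Values of log2(FPKM + 1) in each VGLL2-NCOA2 (red), YAP5SA (blue, replicate 3 as an open diamond) and control (grey) sample for the genes with the largest differences, transfected genes left out. For the decreases, from OTUD7B to DDR2, every YAP5SA sample lies above every VGLL2-NCOA2 sample.

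Few other genes of the TEAD program were called. The counts of this and the following lists stand beside shares of 1.95% called higher and 2.15% lower over all genes tested. Of 16 tested genes of a YAP-TEAD signature, CTGF, CYR61 and ANKRD1 were higher and 0 were lower, with a median difference of 0.19 (0.25 without YAP5SA replicate 3), beside 0.01 over all genes. Among the rest, the kinase gene NUAK2 (0.84) and CRIM1 (0.79) had adjusted p under 0.05 but differences under 1, and FOXF2 (-0.88) was called lower only without YAP5SA replicate 3 (-1.05). These 3 were chosen after their values were seen. Apart from YAP1 and VGLL2, none of the other tested TEAD factors and YAP or VGLL cofactors was called. TEAD1 to TEAD4 differed by -0.26 to 0.45, the YAP relative WWTR1 by -0.25, VGLL3 by 0.18 and VGLL4 by -0.37.

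Upstream in the Hippo pathway, 1 of 27 tested kinases, scaffolds and feedback genes was called lower, where 2.15% of all genes were called lower. LATS1, a kinase that inactivates YAP, was lower, with 7.31, 8.26 and 7.88 FPKM in VGLL2-NCOA2 samples and 15.4, 16.8 and 20.3 FPKM in YAP5SA samples (-1.06 ± 0.11, adjusted p = 0.0024). Its difference was -0.96 without YAP5SA replicate 3, under the threshold. The control mean was 4.73 FPKM. Without that replicate the 1 call of the list was WWC2, a scaffold of the LATS kinases, which was higher (1.04, against 0.93 with all 6 samples).

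The acetyltransferases that NCOA2 brings in were lower with VGLL2-NCOA2 than with YAP5SA. Both were above control under either plasmid, with control means of 4.23 FPKM for CREBBP and 4.58 FPKM for EP300. CREBBP had 7.18, 6.71 and 6.90 FPKM in VGLL2-NCOA2 samples and 12.3, 14.2 and 21.1 FPKM in YAP5SA samples (-1.05 ± 0.19, adjusted p = 0.010). EP300 had 9.30, 8.99 and 8.38 FPKM in VGLL2-NCOA2 samples and 15, 17.4 and 25.5 FPKM in YAP5SA samples (-1.01 ± 0.19, adjusted p = 0.012). Replicate 3 was the highest sample for both, and without it the differences of -0.84 and -0.80 fell under the threshold. EP300 also lost its call without VGLL2-NCOA2 replicate 3 (-0.97). NCOA2 itself aside, the other 11 of the 14 coactivator and acetyltransferase genes were not called. The median of all 14, NCOA2 included, was -0.27.

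The 13 tested AP-1 factors, which work with TEAD at many enhancers, had a median difference of 0.06 (0.08 without YAP5SA replicate 3). None of the 11 tested cAMP and CREB response genes was called. Their most abundant members had differences of 0.76 for DUSP1, a MAP kinase phosphatase, and -0.67 for CRTC2, a CREB coactivator.

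Extracellular matrix genes split, with 3 of 21 higher and 3 lower, where 1.95% of all genes were called higher and 2.15% lower. Those lower were COL3A1, COL5A2 and SPARC, a collagen-binding glycoprotein with 5.99, 5.42 and 5.93 FPKM in VGLL2-NCOA2 samples and 18.1, 18.4 and 16.6 FPKM in YAP5SA samples (-1.46 ± 0.08, adjusted p = 0.00044). Those higher were COL18A1 and AGRN of the basement membrane (1.35 ± 0.13 and 1.31 ± 0.12) and COL12A1 (1.23 ± 0.14). All 6 calls held without YAP5SA replicate 3. The 13 tested integrin and focal adhesion genes had 0 calls and a median of -0.38.

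In the cytoskeletal list, which holds targets of SRF, TPM1 and CNN2 were higher (1.07 ± 0.08 and 1.05 ± 0.08) and TPM2 lower (-1.20 ± 0.23, adjusted p = 0.013) of 17 tested. TPM1 and TPM2 encode tropomyosins and CNN2 a calponin. TPM2 lost its call without VGLL2-NCOA2 replicate 3 (adjusted p = 0.051) or YAP5SA replicate 1 (-0.99), and CNN2 on the TPM scale (0.93).

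Growth factor receptors and ligands also differed in both directions. The receptor gene ERBB2 had 6.56, 6.08 and 5.71 FPKM in VGLL2-NCOA2 samples and 15.9, 14.7 and 16.7 FPKM in YAP5SA samples (-1.24 ± 0.08, adjusted p = 0.00095), and DDR2 was lower as described. HBEGF, an EGF receptor ligand, was higher, at 5.68, 6.28 and 7.45 FPKM in VGLL2-NCOA2 samples against 2.33, 2.42 and 2.47 FPKM in YAP5SA samples (1.13 ± 0.10, adjusted p = 0.0017). The other 14 of 17 tested were not called. In the TGF-beta list, ID3 and ID4, inhibitors of bHLH factors, were higher (1.83 ± 0.42 and 1.25 ± 0.27) and the receptor gene TGFBR2 was lower (-1.01 ± 0.10), of 16 tested. ID3 and ID4 each lost the call without any 1 of the VGLL2-NCOA2 samples (adjusted p of 0.057 to 0.073), ID4 also without YAP5SA replicate 3 (0.94), and TGFBR2 without VGLL2-NCOA2 replicate 1 (-0.92) or YAP5SA replicate 2 (-0.97).

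Genes of amino acid supply were the list with the most calls. Of 19 ATF4 and amino acid response genes, 7 were higher and 0 lower, with a median of 0.72 (0.70 without YAP5SA replicate 3), where 1.95% of all genes were called higher. ATF4 is the transcription factor that cells make more of when amino acids run short. In 15 of the 19 genes every VGLL2-NCOA2 sample lay above every YAP5SA sample, as in 26.3% of all genes tested.

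CHAC1, which degrades glutathione, had 16.9, 17.7 and 15.9 FPKM in VGLL2-NCOA2 samples and 2.66, 2.12 and 0.387 FPKM in YAP5SA samples (2.83 ± 0.36, adjusted p = 0.0039). PSAT1, an enzyme of serine synthesis, had 203, 208 and 222 FPKM in VGLL2-NCOA2 samples and 68.9, 68.2 and 37.1 FPKM in YAP5SA samples (1.90 ± 0.25, adjusted p = 0.0046). YAP5SA replicate 3 was the lowest sample of both. SLC7A11, the cystine importer, had 11.1, 11.6 and 11.6 FPKM in VGLL2-NCOA2 samples, against 2.96, 2.46 and 2.18 FPKM in YAP5SA samples (1.82 ± 0.10, adjusted p = 0.00044). ASNS, asparagine synthetase, had 9.91, 8.59 and 10.9 FPKM in VGLL2-NCOA2 samples and 3.70, 2.15 and 2.40 FPKM in YAP5SA samples (1.54 ± 0.17, adjusted p = 0.0026).

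The other 3, named after their values were seen, were ATF4 (1.06), DDIT3 (1.01) and MTHFD2 (1.31). ATF4 and DDIT3 fell under the threshold without YAP5SA replicate 3, at 0.87 and 0.71. In all, 6 members of the list were called without replicate 3. Control means were 46.4 FPKM for CHAC1, 279 FPKM for PSAT1, 9 FPKM for SLC7A11 and 4.17 FPKM for ASNS, so VGLL2-NCOA2 cells stood below control for the first 2 and above it for the others. YAP5SA cells stood below control for all 4.

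Interferon-stimulated genes were higher in 4 of 10 tested members and lower in 0, with a median of 0.60 (0.66 without YAP5SA replicate 3). Over all genes tested, 1.95% were called higher. Every VGLL2-NCOA2 sample lay above every YAP5SA sample in 6 members and below in 2, against 26.3% and 24.7% of all genes tested. The lowest difference of the list was -0.81. IFI6, a mitochondrial protein induced by interferon, had 37.3, 35.2 and 35.1 FPKM in VGLL2-NCOA2 samples and 5.66, 4.98 and 0.627 FPKM in YAP5SA samples (3.20 ± 0.53, adjusted p = 0.0082). IFIT1, an RNA sensor, and BST2, which tethers viruses to the cell, differed by 1.5 ± 0.11 and 1.26 ± 0.22. IFIT1 had a control mean of 0.747 FPKM, near the YAP5SA level, while IFI6 had 26.9 FPKM in control cells, near the VGLL2-NCOA2 level. The 10 tested genes of MHC class I presentation had 0 calls. HLA-B reached 0.99 with all 6 samples and was called without YAP5SA replicate 1 (1.12) or replicate 2 (1.09), and HLA-C differed by 0.46 ± 0.20 (0.24 without YAP5SA replicate 3).

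Neuronal genes, some of which HEK293T cells express, were higher in 3 of 5 tested members, where 1.95% of all genes were called higher. Without YAP5SA replicate 3 the list had 2 calls, and 6 of its 12 members were under 1 FPKM in all 6 samples. NEFM, a neurofilament subunit (chromosome 8, 24913012 to 24919098), had 41.1, 42.5 and 42.4 FPKM in VGLL2-NCOA2 samples and 6.27, 6.22 and 4.78 FPKM in YAP5SA samples (2.68 ± 0.11, adjusted p = 0.00023), with a control mean of 94.6 FPKM. NEFL, the light subunit, had 16.1, 16.6 and 16.7 FPKM in VGLL2-NCOA2 samples and 1.35, 2.14 and 1.25 FPKM in YAP5SA samples (2.77 ± 0.14, adjusted p = 0.00037), with a control mean of 45.0 FPKM. Both subunits were below control under each plasmid, and further below it with YAP5SA. UCHL1, a neuronal ubiquitin hydrolase, was called with all 6 samples (1.44 ± 0.42, adjusted p = 0.045), and its call was lost without any 1 of them, with differences of 0.93 to 1.72.

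Epithelial and mesenchymal genes showed few calls. ESRP2, a splicing regulator of epithelial cells, had 8.06, 7.42 and 7.85 FPKM in VGLL2-NCOA2 samples and 0.277, 0.217 and 0.445 FPKM in YAP5SA samples (2.74 ± 0.09, adjusted p = 0.00013). It was the 1 call among 7 epithelial genes tested, and its control mean was 3.08 FPKM. Of 12 mesenchymal genes, SNAI2 and COL3A1 were lower and 0 higher. Of 8 skeletal muscle genes tested, the embryonic myosin gene MYH3 (-1.34 ± 0.19, adjusted p = 0.0052) and the actin gene ACTA1 (-1.25 ± 0.29, adjusted p = 0.022) were lower. Their VGLL2-NCOA2 levels were 0.857 to 1.55 FPKM, against 2.80 to 7.25 FPKM in YAP5SA samples. ACTA1 fell to -0.94 without YAP5SA replicate 3, and it also lost its call without any 1 of the VGLL2-NCOA2 samples or without YAP5SA replicate 2 (adjusted p of 0.052 to 0.075). TBX3, a T-box repressor, was the 1 call of 20 developmental factors (-1.07 ± 0.11, adjusted p = 0.0022), and fell to -0.99 without VGLL2-NCOA2 replicate 3.

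**Figure D4:**
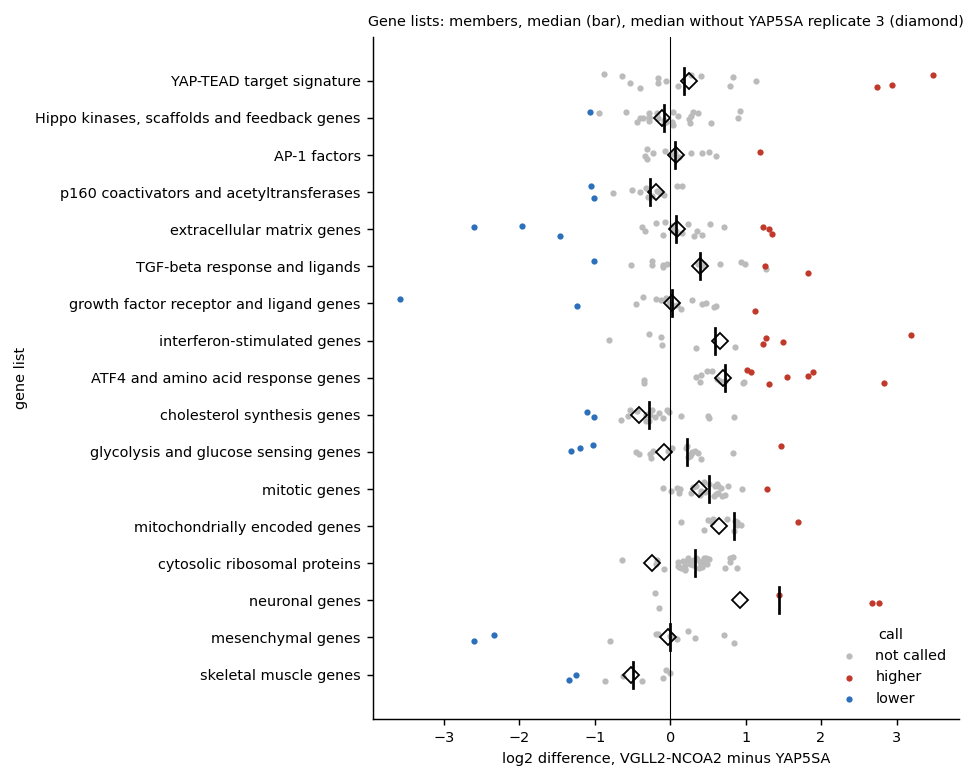
Differences of single genes (points) on the log2(FPKM + 1) scale for 17 gene lists, with NCOA2, VGLL2 and YAP1 left out of the points, the median of all tested members as a bar and the median without YAP5SA replicate 3 as a diamond. ATF4 and interferon lists lie to the right of 0 with both medians, and the ribosomal protein list has its median at 0.33 with all samples and at -0.24 without replicate 3.

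Metabolic genes lower in VGLL2-NCOA2 cells included glucose transporters. SLC2A1 had 8.98, 9.84 and 8.84 FPKM in VGLL2-NCOA2 samples, against 28.6, 28.0 and 18.2 FPKM in YAP5SA samples (-1.32 ± 0.18, adjusted p = 0.0047). SLC2A3 had 5, 5.26 and 4.43 FPKM in VGLL2-NCOA2 samples and 15, 14.2 and 9.18 FPKM in YAP5SA samples (-1.20 ± 0.18, adjusted p = 0.0065). Control means were 7.48 and 2.06 FPKM. The aldolase gene ALDOC was also lower (-1.02 ± 0.15), though not without YAP5SA replicate 2 (-0.87). ARRDC4, which promotes loss of glucose transporters from the surface, was higher (1.46 ± 0.22, adjusted p = 0.0061). These 4 calls, apart from that of ALDOC, held without any 1 sample. The other 18 of the 22 glycolysis and glucose sensing genes were not called, and the median of the list was 0.21 with all samples and -0.08 without YAP5SA replicate 3.

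Of 22 cholesterol synthesis genes, IDI1 and SQLE were lower (-1.10 ± 0.25 and -1.01 ± 0.20). Their levels were 8.87 to 22 FPKM in VGLL2-NCOA2 samples, against 13.3 to 54.1 FPKM in YAP5SA samples, with YAP5SA replicate 3 the lowest of its group for both. Both stayed called without that replicate (-1.40 and -1.24), and both lost the call without any other single sample, through an adjusted p of 0.052 to 0.073 or a difference of -0.87 to -0.96.

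Among cell cycle genes, the mitotic list had 1 call. CENPE, a mitotic kinesin, had 15.8, 15.9 and 18.1 FPKM in VGLL2-NCOA2 samples and 6.02, 5.68 and 7.08 FPKM in YAP5SA samples (1.28 ± 0.10, adjusted p = 0.0014). The 25 mitotic genes had a median of 0.51 (0.39 without YAP5SA replicate 3), and in 21 of them every VGLL2-NCOA2 sample lay above every YAP5SA sample, as in 26.3% of all genes tested. The 24 replication genes had a median of 0.24 with all samples and without YAP5SA replicate 3. The histone genes HIST1H3B and HIST1H2AC were higher (1.21 ± 0.24 and 1.10 ± 0.10), of 10 tested. HIST1H3B lost the call without VGLL2-NCOA2 replicate 3 (adjusted p = 0.053) or YAP5SA replicate 3 (0.96).

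All 13 mitochondrially encoded genes had positive differences, with a median of 0.84 (0.65 without YAP5SA replicate 3, 0.21 with quantile normalization). Transcripts of the mitochondrial genome took up 6.18% to 6.56% of the length-weighted total in VGLL2-NCOA2 samples and 3.6% to 4.64% in YAP5SA samples, with 9.97% to 12.6% in control samples. The 1 call was MT-ATP8, a subunit of ATP synthase (1.69 ± 0.21, adjusted p = 0.0040). MT-ATP8 spans only bases 8366 to 8572, little more than a read of 150 bases, so its FPKM is less certain. It had 149, 225 and 150 FPKM in VGLL2-NCOA2 samples and 53.3, 43.5 and 61.8 FPKM in YAP5SA samples. The call of EIF2S3, a subunit of the initiation factor that carries the starter tRNA, was the 1 among 22 translation factors (1.01 ± 0.16). It stood just above the threshold and was lost without YAP5SA replicate 3 (0.87), VGLL2-NCOA2 replicate 2 (adjusted p = 0.038, with a difference just under 1) or VGLL2-NCOA2 replicate 3 (0.99).

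Most housekeeping and response lists had 0 calls in either direction. These were the Notch (14 tested), Wnt (15), p53 (14), NF-kB (5), endoplasmic reticulum chaperone (17), heat shock (15), cytosolic ribosomal protein (36), mitochondrial ribosomal protein (30), nuclear respiratory chain (29), proteasome (25), splicing (31) and deacetylase and bromodomain (17) lists. Several of their medians turned on YAP5SA replicate 3. Cytosolic ribosomal proteins had a median of 0.33 with all samples and -0.24 without it, mitochondrial ribosomal proteins 0.06 and -0.11, proteasome subunits 0.11 and -0.02, and nuclear respiratory chain genes 0.39 and 0.03. RPS2, an abundant ribosomal protein, had 1205 to 1271 FPKM in VGLL2-NCOA2 samples and 1608, 1794 and 769 FPKM in YAP5SA samples. No direction is given for these groups. The antioxidant list had SLC7A11 as its 1 call of 17 and a median of 0.54 (0.20 without YAP5SA replicate 3), the embryonic kidney list NEFM as its 1 call of 8 and a median of -0.45, and the leukocyte (2 tested) and endothelial (1 tested) lists had 0 calls.

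Among the most abundant members of these lists, HSP90AB1, a cytosolic chaperone, had a difference of 0.61 ± 0.19, CANX of the endoplasmic reticulum 0.59 ± 0.10 and HDAC1, a histone deacetylase, 0.50 ± 0.08. The Notch target HES4 had 121 to 151 FPKM in VGLL2-NCOA2 samples and 162, 124 and 21.8 FPKM in YAP5SA samples, with a difference of 0.82 ± 0.72 (-0.06 without YAP5SA replicate 3). SESN2 of the p53 list had 0.65 ± 0.18 and NFKB2 0.66 ± 0.07. All lay under the threshold of 1.

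Genes that differed were also placed along the chromosomes, a view chosen after the values were seen. In 418 windows of 5 Mb with at least 10 tested protein-coding genes, the median difference lay between -0.06 and 0.13 for the middle range of windows. One window stood apart at each end. On chromosome 1 from 145000001 to 150000000, 35 genes had a median of -1.07 (-1.02 without YAP5SA replicate 3), with 19 called lower and 0 higher, where 1.5% of protein-coding genes were called lower. The next lowest window had -0.55. The genes in it have unrelated roles, among them SF3B4, the RNA polymerase III subunit gene POLR3C, the SUMO ligase gene PIAS3, the AMP kinase subunit gene PRKAB2, the Wnt coactivator gene BCL9 and several NBPF genes, whose near-identical copies share reads.

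Relative to the control mean, the median of these 35 genes was 0.20, 0.17 and 0.16 in VGLL2-NCOA2 samples and 1.08, 1.17 and 1.17 in YAP5SA samples. It was 0.03 to 0.06 in TEAD1-NCOA2 samples. All 3 YAP5SA samples were thus higher by a like amount across the window and the other groups were near control. In the 4 steps of 1 Mb around the centre the median was -0.99 to -1.12. Past the end of the window it was -0.37 in the step from 3 to 4 Mb beyond the centre, and 0.05 in the next. Farther out it was negative again, at -0.17 from 6 to 7 Mb and -0.21 from 7 to 8 Mb. The window from 150000001 to 155000000 had a median of -0.26, with 60 of 76 genes below 0. The window from 155000001 to 160000000 had a median of -0.38.

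The highest window was on chromosome 18 from 35000001 to 40000000, where 14 genes had a median of 1.10 (1.11 without YAP5SA replicate 3), with 8 called higher and 0 lower, where 1.86% of protein-coding genes were called higher. All 14 had positive differences. The window before it had a median of 0.81 over 10 genes. Relative to the control mean its genes were at 0.53 to 0.56 in VGLL2-NCOA2 samples, -0.49 to -0.68 in YAP5SA samples and 0.33 to 0.42 in TEAD1-NCOA2 samples. Called genes there included RPRD1A, a regulator of RNA polymerase II (1.73), TPGS2, a subunit of tubulin polyglutamylase (1.70), and ELP2 of the Elongator complex (1.43). DNA copy number was not measured, and its part in these regions was not tested.

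**Figure D5:**
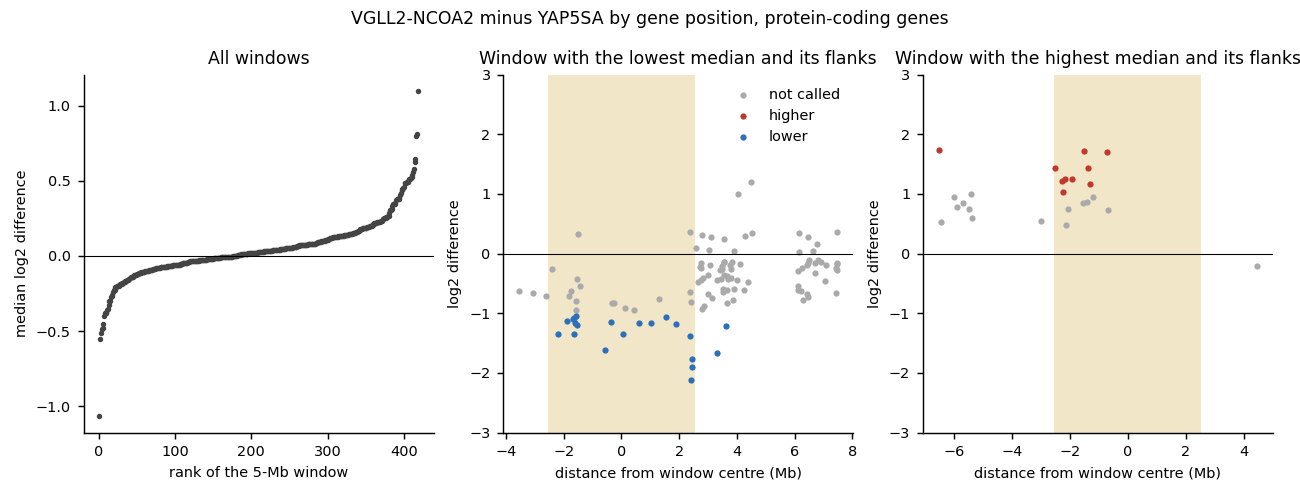
Median difference of each of 418 windows of 5 Mb in rank order (left), and differences of single protein-coding genes, on the log2(FPKM + 1) scale, by distance in Mb from the centre of the lowest (middle) and highest (right) window, which are shaded. In the lowest window 33 of 35 genes lie below 0, and in the highest all 14 lie above it.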

How the data were processed

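RNA from HEK293T cells transfected with VGLL2-NCOA2, TEAD1-NCOA2, YAP5SA or empty vector plasmids was sequenced from both ends at 150 bases, with 3 samples in each of 4 groups, grouped by their labels. The replicates were processed separately, per the study's methods, but separate transfections are not stated, so p-values cover the spread between samples, which may be technical. For each group the authors deposited 1 table of FPKM by gene. How reads were aligned, counted and scaled, and with which strand setting, was not given in the sources used here. GRCm38 and mm10 are the builds in the submitters' processing notes, while all 58735 genes match the human coordinates of GENCODE release 29 (GRCh38). 12 symbols that a spreadsheet had turned into dates were matched by identifier. Gene lengths came from the deposited tables.

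Tables were joined by gene identifier. log2(FPKM + 1) values of the 6 VGLL2-NCOA2 and YAP5SA samples were fitted in limma 3.58.1 (R 4.3.3; eBayes with trend, 2-sided) with group means and no replicate block, and p-values were adjusted by the Benjamini-Hochberg method over the 15095 genes that reached 1 FPKM in 3 or more samples. The YAP5SA values were not whole fragments, so no count test was run. The fit was tested on simulated data. Named genes were the transfected genes, CTGF, CYR61, ANKRD1 and AMOTL2, the 12 largest increases and decreases among called protein-coding genes with non-overlapping groups and a higher group averaging 5 FPKM or more, and from each of 44 gene lists up to 4 called members, or, with 0 called, the 2 of highest expression. Some genes that this rule takes are not reported here. Members, lists and tests were chosen with earlier results of these data known. Promoters are RefSeq sequences of GRCh38.p14, matched by identifier or symbol. Alternatives were other pseudocounts (0.1 and 5), filters, scalings, corrections, sample weights, a replicate block, the fit of all 12 samples and leaving out each sample in turn.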

Additional observations from a re-analysis of the deposited data

How the results depend on the processing

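The counts of genes called, 294 higher and 324 lower, moved by more than 1.5 times under 5 settings. A pseudocount of 0.1 gave 539 and 652, and a pseudocount of 5 gave 78 and 32. A filter of at least 5 FPKM in at least 3 samples gave 202 higher and 114 lower, since fewer genes were tested, and protein-coding genes alone gave 225 and 177. The TPM scale gave 308 and 929. The cause of these shifts, other than the smaller number of genes tested, was not tested. Leaving out 1 sample at a time gave 255 to 337 higher and 299 to 346 lower. Median-of-ratios scaling, quantile normalization, correction for gene length and GC, sample weights, no filter and the fit of all 12 samples stayed within 1.5 times. The deviations of same-numbered samples correlated at -0.008, -0.005 and -0.024. With 3 samples a group, an outlying YAP5SA replicate 3 and tables of different kinds, these values cannot show whether the numbers pair the samples. A replicate block gave 282 higher and 309 lower, and with the length and GC correction 311 and 291. Of 64 named genes called, 32 kept the call under all 19 settings and 0 reversed. The limits are 3 samples a group, of which 2 YAP5SA samples share values, an unknown depth for YAP5SA, and tables that may have been scaled separately.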

Other observations

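Calls were unevenly spread over gene classes. Among 557 long intergenic RNAs, 6.46% were called lower in VGLL2-NCOA2 cells and 2.33% higher, among 582 processed pseudogenes 4.47% and 1.89%, and among 126 small nuclear RNAs 8.73% and 2.38%, against 1.5% and 1.86% of 11789 protein-coding genes. Many of these values are low or come from short genes. The filter also lets in weak genes through 1 group alone. More genes were above 0 in YAP5SA samples, 30893 to 31160, than in VGLL2-NCOA2 samples, 25969 to 26247. The part of the filter and of the separately made tables in these shares was not tested.

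By gene length, the 2948 shortest protein-coding genes tested, 207 to 3309 bases, had 2.88% called higher and 2.17% lower, and the 2947 longest, from 7554 bases, had 1.15% and 1.32%. The correlation of the difference with gene length, across 11789 genes that are not independent replicates, was -0.12 by Spearman's rho with all 6 samples and 0.04 without YAP5SA replicate 3. With GC content it was -0.07 and -0.10 across 11781 genes. The 2945 genes richest in GC had 2.82% called higher and 2.51% lower, and the 2946 poorest 1.09% and 0.611%.

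By chromosome, 20 of the 424 genes tested on chromosome 4 were higher (4.72%) and 4 lower, with a median of 0.35 (0.27 without YAP5SA replicate 3). On chromosome 18, 14 of 162 were higher (8.64%) and 1 lower. On chromosome 17, 25 of 729 were lower (3.43%) and 13 higher. Chromosomes 13, 15 and 21 had 0 genes called lower, of 204, 378 and 108 tested.

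A count of the TEAD core word in promoters of the called genes is not given, because 74.4% of protein-coding genes called higher and 77.4% of those called lower had a RefSeq promoter to search, too few for the comparison.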
